A study of Mus musculus with 6 samples.

Results

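Desmosomes are the button-like junctions that hold epithelial cells together and tie the keratin filaments of neighbouring cells into a common scaffold. Cadherins of the desmoglein and desmocollin families cross the gap between cells, plakoglobin and the plakophilins bind the tails of these cadherins inside the cell, and desmoplakin links this plaque to keratins. In the mammary epithelium both the luminal cells and the myoepithelial cells, which surround them and contract to eject milk, carry desmosomes, with a different set of members in each layer. The 10 desmosome genes described here are the cadherins Dsg2 and Dsc2, plakoglobin (Jup), the plakophilins Pkp1, Pkp2 and Pkp3, desmoplakin (Dsp), the plakins Ppl and Evpl, and Perp, a membrane protein of desmosomes that is a target of p53 and p63. They were listed by name and not by a cut on their values, but earlier results of these data were known when the list was made. All 10 were found among the 34590 genes of the count table, and all 10 were among the 17345 genes with enough reads to be tested.

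RNA-seq was performed on 6 inguinal mammary glands (gland number 4) from 3 host mice. In each WT host the left gland carried engrafted WT.EGFP+ epithelium and the right gland Adamts18-/-.EGFP+ epithelium, so the genotype and the body side cannot be told apart. Both kinds of donor epithelium carry the same EGFP transgene under a chicken β-actin promoter, active in all cells, the hosts' fat pads had been cleared of their own epithelium, and the age of the mice at collection is not given by the labels. Adamts18 encodes a secreted protease of the extracellular matrix, and the comparison asks which transcripts change when the epithelium lacks it.

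The total count lay between 53875123 and 71595924 reads per gland, and CPM below is the count scaled to a common library size with TMM factors, which correct for differences in library composition. Sets of 3 values are given in the order of mice 1, 2 and 3. Adamts18 itself had 252, 608 and 383 reads with WT epithelium and 144, 295 and 202 reads with Adamts18-/- epithelium (log2 fold change -0.83, standard error 0.194, unadjusted p = 0.00922, edgeR). The count covers the whole gene, and it was lower in each mouse but above 0 in all Adamts18-/- glands. By the labels, the RNA came from GFP-positive cells after sorting, but the adipocyte markers summed to 7528 to 17558 CPM per gland, above the 1389 to 2693 CPM of 24 pan-epithelial genes, and fibroblast markers to at least 8015 CPM. Skeletal muscle markers were at 293 and 848 CPM with WT epithelium in mice 1 and 2, 10892 and 10803 CPM in their Adamts18-/- glands, and 2787 and 1872 CPM in the WT and Adamts18-/- glands of mouse 3. B cell markers reached 116.5 and 540.2 CPM in the glands of mouse 3 against 8.15 to 13.4 CPM in the other 4 glands. Cardiac muscle, the other tissue rich in several of these desmosomal proteins, gave 4.37 to 11.2 CPM in all, with Nppa at 0 reads in all 6 glands. In such bulk RNA, fewer epithelial cells and less RNA per epithelial cell cannot be told apart.

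Dsp and Jup, the plaque genes that link the cadherins to keratins, had the highest mean CPM of the members, and they were lower in the Adamts18-/- gland of every mouse. The stretch of DNA before their start sites is shown because they were the members whose promoters the RefSeq table (GRCm38.p6) held. It covers the 250 bases before the start in that table, read 5′ to 3′ on the gene's strand. The windows are chr13:38151044-38151293 (plus strand) for Dsp and chr11:100397791-100398040 (minus strand) for Jup. For Jup that start lies upstream of the one in GENCODE M21 (GRCm38), 100397763. The capitals mark GC boxes (GGGCGG or its reverse complement CCGCCC) and CCAAT boxes (CCAAT or ATTGG).
Dsp: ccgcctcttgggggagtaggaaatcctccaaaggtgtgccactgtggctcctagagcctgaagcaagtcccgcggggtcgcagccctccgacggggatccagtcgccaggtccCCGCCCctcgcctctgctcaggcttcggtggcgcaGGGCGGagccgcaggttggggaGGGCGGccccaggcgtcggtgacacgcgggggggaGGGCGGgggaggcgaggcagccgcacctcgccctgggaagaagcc
Jup: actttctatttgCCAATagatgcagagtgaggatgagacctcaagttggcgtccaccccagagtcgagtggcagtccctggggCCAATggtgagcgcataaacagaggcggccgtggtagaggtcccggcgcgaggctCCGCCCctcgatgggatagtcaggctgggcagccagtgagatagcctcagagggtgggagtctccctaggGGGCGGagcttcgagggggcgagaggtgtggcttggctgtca

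The Dsp window held 4 GC boxes and no CCAAT box, and the Jup window held 2 of each. A GC box was present in 32.7% and a CCAAT box in 33.8% of the 32851 windows of this length in the table. Neither window held the letters CAGGTG, an E-box recognised by repressors of epithelial genes, or GGAATG, an element recognised by TEAD factors, on either strand, and 17.2% and 12.6% of all windows did. The GC content was 72.4% for Dsp and 62.0% for Jup, against a median of 52.4%. These matches are letters in a window and were not tested as binding sites. The table held the promoters of these 2 of the 10 members.

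**Figure D1:**
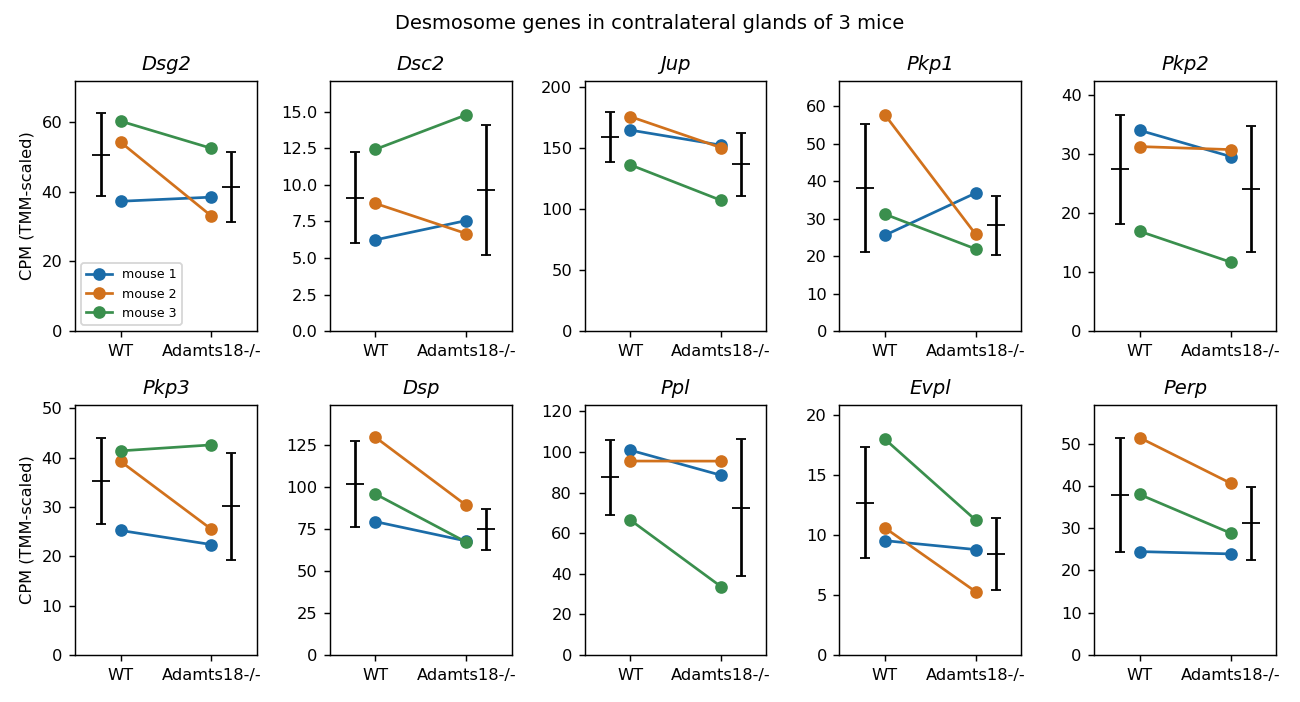
Level of each desmosome gene in the 6 glands, in CPM after TMM scaling (y axis, from 0), with each line joining the WT and Adamts18-/- glands of a mouse and black bars giving the mean ± SD (n = 3). All 3 lines fall for Dsp, Jup, Evpl, Perp and Pkp2, the line of mouse 2 is level for Ppl, and in every panel the WT and Adamts18-/- values overlap.

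Across the genotypes, 9 of the 10 desmosome genes had a lower fitted level in Adamts18-/- glands (1 of 10 when scaled to epithelial genes, as described further on), with a median log2 fold change of -0.27 against 0.00065 over all genes tested. A lower fitted value was found for 49.8% of all tested genes. Among the members, Dsp and Evpl passed the thresholds (an unadjusted p under 0.05 together with a fold change below 0.8 or above its reciprocal), both of them lower, where 1.84% of all tested genes were lower and 1.17% higher by the same rule. With 6 of 10 members, the Adamts18-/- gland was below the WT gland in all 3 mice, which was the case for 12.7% of all tested genes. Any difference below 0 was counted, and for Ppl it was -0.00066 (log2) in mouse 2. No member (0 of 10) had all 3 Adamts18-/- glands below all 3 WT glands (2.63% of all tested genes). Pkp1, Pkp3, Dsg2 and Dsc2 were higher in the Adamts18-/- gland of at least 1 mouse. No member (0) had an adjusted p under 0.05 with edgeR's quasi-likelihood test and Benjamini-Hochberg adjustment over all genes, where the members lay between 0.987 and 0.991, nor did any with DESeq2 or limma-voom. Of all 17345 genes tested, 0 passed by adjusted p with edgeR (lowest 0.771) or limma-voom and 71 with DESeq2. At an unadjusted p under 0.05 the 3 tools counted 3, 3 and 4 members, and edgeR counted 3.86% of all tested genes. The 3 pairs came from separate hosts, and the study describes separate donors.

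Dsp encodes desmoplakin, the plakin without which desmosomes do not anchor keratin, and lies on chromosome 13 from 38151294 to 38198577 (GRCm38, GENCODE M21). It was at 79.3, 129.6 and 95.8 CPM in WT glands and at 67.8, 89.0 and 67.1 CPM in Adamts18-/- glands. The decrease was present in each mouse and smallest in mouse 1, with log2 differences of -0.23, -0.54 and -0.51. From 102 ± 25.6 to 74.7 ± 12.5 CPM (SD, n = 3 each), the fitted log2 fold change was -0.43 (standard error 0.0897, 95% confidence interval -0.66 to -0.19, unadjusted p = 0.00598, edgeR). Dsp passed the thresholds with each mouse left out in turn (log2 fold change -0.53, -0.37 and -0.38). Over the 13 alternatives its adjusted p ran from 0.0910 (DESeq2) to 0.99997.

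Evpl encodes envoplakin, a plakin that pairs with periplakin at desmosomes and in the cornified envelope, and lies on chromosome 11 from 116220559 to 116238077. It was low, at 9.52, 10.6 and 18.0 CPM in the WT glands and 8.78, 5.26 and 11.2 CPM in the Adamts18-/- glands. The gland of mouse 1 hardly differed from its partner (log2 difference -0.12), and those of mice 2 and 3 were lower (-1.003 and -0.68). The levels of 12.7 ± 4.61 and 8.42 ± 3.00 CPM (SD, n = 3 each) gave a log2 fold change of -0.60 (standard error 0.200, 95% confidence interval -1.13 to -0.076, unadjusted p = 0.0326, edgeR). The call was lost without mouse 2 (log2 fold change -0.40, unadjusted p = 0.129, edgeR) and without mouse 3 (-0.55, unadjusted p = 0.0663). Ppl, its partner periplakin (chromosome 16, 5086291 to 5132421), was at 101, 95.5 and 66.6 CPM in WT glands and 88.6, 95.5 and 33.7 CPM in Adamts18-/- glands. The contralateral glands of mouse 2 were level, and most of the difference lay in mouse 3. The log2 fold change of Ppl was -0.39 (standard error 0.207, 95% confidence interval -0.93 to 0.16), which did not pass, and without mouse 3 it was -0.087.

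Jup encodes plakoglobin, which binds the tails of both desmosomal and classical cadherins, and lies on chromosome 11 from 100368958 to 100397763. It was at 165, 176 and 136 CPM in the WT glands and 153, 150.5 and 107 CPM in the Adamts18-/- glands. Each Adamts18-/- gland was lower than its partner, by log2 differences of -0.11, -0.23 and -0.35. Its log2 fold change of -0.23 (standard error 0.0805, 95% confidence interval -0.44 to -0.017) had an unadjusted p of 0.0392 (edgeR), but the fold change of 0.854 did not pass the threshold of 0.8. Perp (chromosome 10, 18845020 to 18857073) was at 24.5, 51.4 and 38.0 CPM in the WT glands and 23.9, 40.7 and 28.8 CPM in the Adamts18-/- glands. The difference was close to 0 in mouse 1 (log2 difference -0.033) and larger in mice 2 and 3 (-0.34 and -0.40). The log2 fold change was -0.26 (standard error 0.1004, 95% confidence interval -0.52 to 0.0062), and it did not pass with all 3 mice but did without mouse 1 (-0.37, unadjusted p = 0.0457, edgeR).

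The plakophilins are armadillo-repeat proteins that cluster the cadherins and recruit desmoplakin. In stratified epithelia Pkp1 is the form of the upper layers, Pkp2 is the form of simple epithelia and heart, and Pkp3 is present in most epithelia. Pkp1 (chromosome 1, 135871395 to 135919207) was at 25.6, 57.8 and 31.2 CPM in WT glands and 36.9, 25.8 and 21.9 CPM in Adamts18-/- glands. The WT gland of mouse 2 stood above the other 5 glands, and mouse 1 moved the other way from mice 2 and 3. Its log2 fold change was -0.39 with a standard error of 0.336 (95% confidence interval -1.27 to 0.50), the widest interval among the members, and it moved from -0.84 without mouse 1, where it passed (unadjusted p = 0.0143, edgeR), to 0.0090 without mouse 2. Pkp2 (chromosome 16, 16213318 to 16272712) was at 34.0, 31.3 and 16.9 CPM in WT glands and 29.6, 30.8 and 11.7 CPM in Adamts18-/- glands. Both glands of mouse 3 were below the other 4, and the log2 fold change of -0.25 (standard error 0.121, 95% confidence interval -0.57 to 0.068) did not pass and ran from -0.37 without mouse 2 to -0.10 without mouse 3. Pkp3 (chromosome 7, 141078218 to 141090510) was at 25.2, 39.2 and 41.4 CPM in WT glands and 22.4, 25.5 and 42.6 CPM in Adamts18-/- glands. In mouse 3 both glands were high and level with each other, and the log2 fold change of -0.25 (standard error 0.146, 95% confidence interval -0.63 to 0.13) passed only without that mouse (-0.39, unadjusted p = 0.0271, edgeR) and was -0.066 without mouse 2.

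Dsg2 and Dsc2 are the desmoglein and desmocollin of simple epithelia, and their genes lie on chromosome 18, from 20558074 to 20604521 and from 20030633 to 20059554. Dsg2 was at 37.2, 54.2 and 60.2 CPM in WT glands and 38.4, 33.0 and 52.4 CPM in Adamts18-/- glands. Mouse 2 alone showed a large difference (log2 -0.71, with 0.045 and -0.20 in mice 1 and 3), and the log2 fold change of -0.29 (standard error 0.162, 95% confidence interval -0.71 to 0.13) did not pass and ran from -0.46 without mouse 1 to -0.078 without mouse 2. Dsc2 was at 6.24, 8.73 and 12.4 CPM in WT glands and 7.55, 6.67 and 14.8 CPM in Adamts18-/- glands. It was the member with a positive fitted value, 0.048 (standard error 0.179, 95% confidence interval -0.42 to 0.52), with a higher level in the Adamts18-/- gland of mice 1 and 3 and a lower one in mouse 2.

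Taken by mouse, the number of members lower in the Adamts18-/- gland was 7, 10 and 8 of 10 in mice 1, 2 and 3, with median log2 differences of -0.11, -0.46 and -0.45. Of all tested genes, 52.5%, 50.8% and 50.8% were lower, with medians of -0.0098, -0.0052 and -0.0052. The summed level of the 10 genes was 507, 654 and 517 CPM in the WT glands and 476, 503 and 392 CPM in the Adamts18-/- glands. The 24 pan-epithelial genes, none of them a member, summed to 1837, 2311 and 2693 CPM in the WT glands and 1779.7, 1389 and 1887 CPM in the Adamts18-/- glands. Both sums thus differed little in mouse 1 and more in mice 2 and 3. The fitted value was negative for all 24 pan-epithelial genes (median -0.37), and 6 of them passed the thresholds, all lower.

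**Figure D2:**
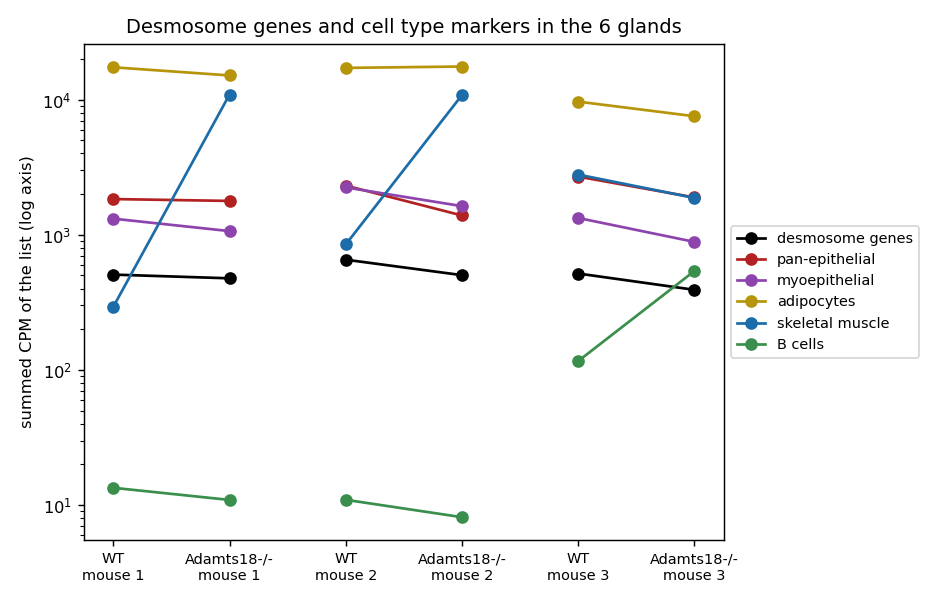
Summed CPM (y axis, log scale) of the desmosome genes and of 5 marker lists in the 6 glands, with a line joining the contralateral glands of each mouse. The desmosome genes run from 392 to 654 CPM and move little beside skeletal muscle (293 to 10892 CPM) and B cell markers (8.15 to 540.2 CPM).

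With the libraries scaled to the summed counts of the pan-epithelial genes instead of to all genes, the direction of most members turned. Krt19, Krt18 and Krt8, keratins of the luminal layer, were the most abundant genes in this sum, so they weigh most in this scaling. The median of all tested genes moved to 0.43 on the log2 scale, and the median of the members became 0.16. Of the 10 genes, only Evpl kept a negative fitted value (-0.17, 95% confidence interval -0.78 to 0.44), Dsp was at 0.0044 (95% confidence interval -0.60 to 0.61), and 0 of 10 passed in either direction, or at an unadjusted p under 0.05 (edgeR). With this scaling 0.19% of all tested genes were lower and 11.9% higher. With either scaling, which shifts all genes alike, the members' median was 0.096 above that of the pan-epithelial genes, a difference that was 0.19 without mouse 1 and -0.048 without mouse 2. Thus the calls for Dsp and Evpl were made relative to all RNA of the gland and not relative to the summed pan-epithelial genes. The intervals with that scaling still allow changes of the size found with TMM scaling. With scaling to the geometric mean of the same genes, an alternative chosen after seeing the data, 4 of 10 members had a negative fitted value, the median was 0.10 and 0 passed.

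**Figure D3:**
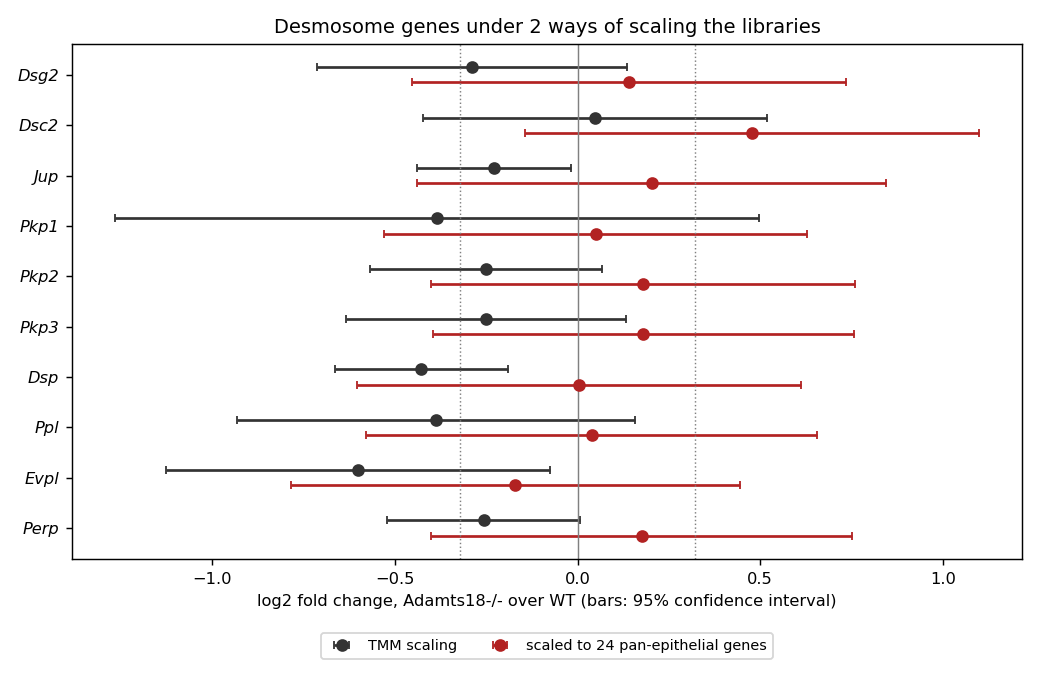
Fitted log2 fold change of each desmosome gene, Adamts18-/- over WT (x axis), with its 95% confidence interval, after TMM scaling (black) and after scaling to 24 pan-epithelial genes (red). Dotted lines mark a fold change of 0.8 and its reciprocal. Black points lie below 0 for 9 genes and red points for Evpl alone.

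More of the spread lay between mice than between genotypes, where the mouse number stands for the host together with the donor and the experiment and these cannot be told apart. The mouse took a median of 71.9% of the variance of log2 CPM over the members, from 25.2% for Pkp1 to 91.7% for Pkp2, and the genotype took 14.8%, with the highest shares for Dsp (43.0%) and Evpl (32.9%). Over all tested genes the medians were 67.3% and 5.98%. These are shares of the raw sum of squares, in which the mouse has more degrees of freedom than the genotype. Part of the contrast between the shares of mouse and genotype therefore comes from the design. In the same fit, the test for differences between mice gave an unadjusted p under 0.05 for 8 of 10 members (edgeR, F test of the mouse terms), against 27.2% of all tested genes, and an adjusted p under 0.05 for none (0 of 10, from 0.0592 for Pkp2 to 0.560 for Pkp1), against 0.628% of all tested genes. The highest mean level of a mouse was 1.34 (Jup) to 2.25 (Pkp2) times the lowest. Pkp2 and Ppl passed the test between mice with scaling to the pan-epithelial genes, and Pkp2 and Perp without the filter on low counts, settings in which 10.5% and 4.50% of all tested genes passed.

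The members fell into different patterns over the 6 glands. Each gene's log2 CPM was centred on its own mean, and the distance between 2 genes was taken as the root mean square difference over the 6 glands. Pkp2 and Ppl were the closest pair (0.15). Both were highest in mice 1 and 2 and lowest in mouse 3, with centred values of -1.03 and -1.16 in its Adamts18-/- gland. Pkp3 and Dsg2 (0.15) and Pkp3 and Dsc2 (0.23) were close to each other and had their highest values in mouse 3. Evpl, at a distance of 0.28 from Dsg2, also had its highest centred value there, 0.86 in the WT gland. Dsp and Perp (0.19) were highest in the WT gland of mouse 2. Pkp2 and Dsc2 were the most distant pair (1.01). The adipocyte markers were also lower in mouse 3, at 9656 and 7528 CPM in its WT and Adamts18-/- glands against 15084 to 17558 CPM in the other 4 glands, and the B cell markers were higher there. The part of these other cell types, and of the skeletal muscle, in the values of the members was not tested.

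**Figure D4:**
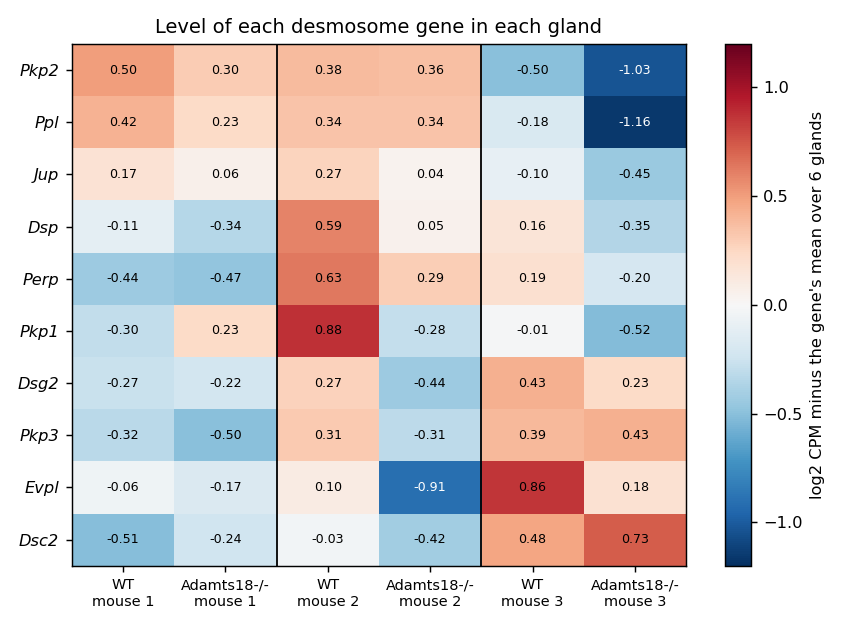
Centred log2 CPM of each desmosome gene (rows) in each gland (columns, grouped by mouse), printed in each cell and coloured from blue (below the gene's mean) to red (above it). Pkp2 and Ppl are lowest in mouse 3, where Dsc2, Dsg2, Pkp3 and Evpl are above their means in both glands.

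The ratios between related members shifted with the mouse. There were 10.6, 9.03 and 3.70 reads of Ppl for each read of Evpl in WT glands and 10.1, 18.1 and 3.00 in Adamts18-/- glands, so that mouse 3 was low in both genotypes. The ratio of Pkp3 to Pkp2 reads was 0.741, 1.254 and 2.44 in WT glands and 0.756, 0.828 and 3.63 in Adamts18-/- glands. Pkp2 thus had more reads than Pkp3 in both glands of mouse 1 and fewer in both glands of mouse 3. The ratio of Dsg2 to Dsc2 reads stayed between 3.55 and 6.21, and that of Dsp to Jup between 0.444 and 0.736. In each mouse the Adamts18-/- gland had the lower ratio of Dsg2 to Dsc2 and of Dsp to Jup. The other ratios taken did not shift in the same direction in all mice. They were Pkp1 to Pkp2, Pkp3 to Pkp2, Pkp1 to Pkp3, Ppl to Evpl and Dsp to Ppl. These ratios were not tested.

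To compare levels between genes, CPM was divided by the length of each gene's annotated exons in kilobases. Jup was the highest, at a median of 47.0 CPM per kb over the 6 glands (33.3 to 54.7), and was above every other member in each gland. Perp (17.1), Ppl (14.8), Pkp3 (10.6), Pkp2 (10.3), Dsp (8.78), Pkp1 (6.11) and Dsg2 (5.49) followed, and Dsc2 (1.76) and Evpl (1.57) were lowest. Neighbours in this order from Perp to Dsg2 overlapped, with Perp above Ppl in 4 of 6 glands, Pkp3 above Pkp2 in 3 and Pkp2 above Dsp in 3. Dsg2 was above Dsc2 in all 6 glands, and Dsc2 above Evpl in 4. The annotation gave 499 of the 9592 exon bases of Dsp and 330 of the 8268 of Dsg2 to genes on the opposite strand as well, and how the counting treated such bases is not given in the sources used here.

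The remaining desmosomal genes, listed by name, were Dsg1a, Dsg1b, Dsg1c, Dsg3, Dsg4, Dsc1, Dsc3, Pkp4, Cdsn and Kazn. These include the cadherins of stratified epithelium, and 6 of the 10 were tested. Of these, 1 was lower and 0 were higher, with a median of -0.13. Kazn, which encodes a protein that binds periplakin, passed. It was at 31.5 ± 3.63 CPM with WT and 25.04 ± 2.97 CPM with Adamts18-/- epithelium (SD, n = 3 each), lower in all 3 mice (log2 -0.33, standard error 0.0774, unadjusted p = 0.00920, edgeR). Dsg4 had 0 reads in all 6 glands, and Dsg1b, Dsg1c and Dsc1 averaged under 0.1 CPM in each genotype. Dsc3, the desmocollin of basal layers, had 21, 75 and 45 reads in the WT glands and 29, 92 and 907 in the Adamts18-/- glands. The Adamts18-/- gland of mouse 3 alone was high, and the log2 fold change of 1.80 (standard error 0.914) did not pass. Dsc3 was singled out after its values were seen.

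Among the keratins, the filaments that desmosomes anchor, 6 of 8 were lower and 0 higher, with a median of -0.53, but 2 were lower without mouse 2 and 3 without the mouse as a block. Krt19 fell from 443 ± 56.4 to 287 ± 12.6 CPM (SD, n = 3 each; log2 fold change -0.62), and Krt17 (-0.61), Krt14 (-0.56), Krt18 (-0.52), Krt8 (-0.43) and Krt7 (-0.39) also passed, which covers keratins of the luminal and of the basal layer. The keratins Krt7, Krt8, Krt18 and Krt19 are also among the pan-epithelial genes. Of 11 adherens junction genes tested, 2 were lower, Cdh3 (P-cadherin, -0.61) and Pvrl1 (nectin-1, -0.37), and 0 higher, with a median of -0.22. Of 13 tight junction genes, 2 were lower, Cldn8 (-0.54) and Ocln (occludin, -0.48), and 0 higher, with a median of -0.33. Of 9 hemidesmosome genes, which anchor epithelium to the basement membrane, 4 were lower, among them Col17a1 (-0.59), Lama3 (-0.48) and Lamb3 (-0.38), and 0 higher, with a median of -0.30. Of 11 epithelial transcription factors, 2 were lower, among them Trp63 (p63, -0.37), which is known to activate Perp, and 0 higher, with a median of -0.30. Of 5 tested cornified envelope genes, the list that Evpl and Ppl also serve in skin, 0 were lower and 1 was higher, Sprr1a, with 93 reads in the Adamts18-/- gland of mouse 3 and 6 to 19 in the other 5 glands. The myoepithelial and luminal marker lists had 9 and 7 of 10 genes lower and 0 higher. All these counts are from TMM scaling, and with scaling to the pan-epithelial genes 0 keratins and 0 of the 63 genes tested on the junction, keratin, cornified envelope and transcription factor lists were lower, and 2 of the 63 were higher. Of these 63 genes, 13 are themselves among the pan-epithelial genes, 4 of them keratins, so that these counts are in part set by the scaling, with which 11.9% of all tested genes were higher.

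**Figure D5:**
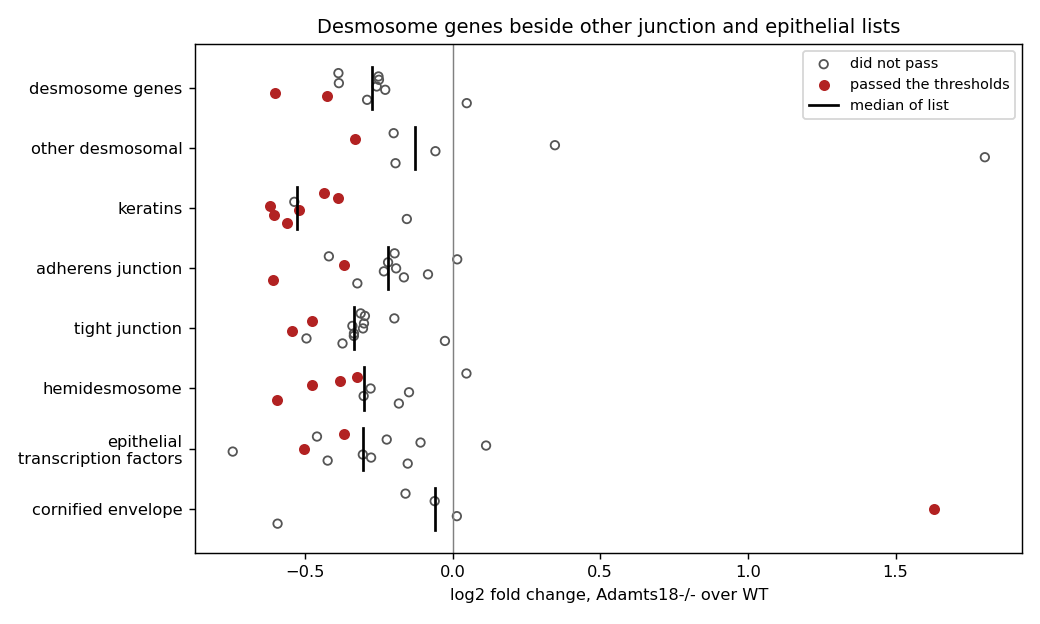
Fitted log2 fold change, Adamts18-/- over WT (x axis), of every tested gene of 8 lists, with the median of each list as a black bar and genes past the thresholds filled in red (TMM scaling). The median of the desmosome genes (-0.27) lies between those of the keratins (-0.53) and of the cornified envelope genes (-0.061).

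The genes whose pattern was most like the mean centred profile of the 10 members were sought among 6669 other genes with at least 32 CPM on average. The mean profile was -0.091, 0.37 and 0.17 in WT glands and -0.11, -0.13 and -0.22 in Adamts18-/- glands. The 5 nearest, by root mean square difference over the 6 glands, included Col4a5 (0.056), a basement membrane collagen chain, Zfp629 (0.061), Plxna3 (0.073), a semaphorin receptor, and Fat1 (0.076), an atypical cadherin. Their log2 fold changes ran from -0.30 to -0.25, and none passed the thresholds. The members themselves lay 0.16 (Dsp) to 0.56 (Pkp2) from their mean. The 5 genes were picked as the nearest of 6669, so their smaller distances follow from that choice and say nothing about the members.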

How the data were processed

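RNA-seq counts of 6 glands were used, and groups and mouse numbers were taken from the sample labels. The authors deposited raw read counts per gene symbol, 1 column per gland (0 columns left unused), from single-end reads. The submitters' processing notes name bcl2fastq 2.18, TopHat2 2.0.11, featureCounts 1.6.2, edgeR and the build mm9. Strand setting and annotation are not given in the sources used here. Gene positions and exon lengths were taken from GENCODE M21 (GRCm38), a build other than mm9, by symbol.

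Counts were filtered, TMM-scaled and tested in R 4.3.3 with edgeR 4.0.16 (quasi-likelihood test, mouse as a block, Benjamini-Hochberg adjustment over 17345 genes), at the thresholds of the study. DESeq2 1.42.0 and limma 3.58.1 (voom) were alternatives. The log2 CPM used a prior count of 2. At this depth a count of 0 allows up to 3 counts, or 0.0430 to 0.0574 CPM, which covers counting error only. The mouse pairing comes from the labels and the study's contralateral design, and contralateral glands deviated together (correlations across genes of 0.512, 0.505 and 0.639). Between libraries the chi-square per degree of freedom was 34.1 or more. The fit was checked on simulated counts. The members and lists were chosen with earlier results of these data known. Named genes were all members, list genes past the thresholds, the 5 nearest genes and Adamts18. Outside this rule, Dsc3, Nppa and the other genes of the desmosomal list were named after their values were seen. Some genes that this rule selects are not reported here, and they stayed in the fits and counts.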

Additional observations from a re-analysis of the deposited data

How the results depend on the processing

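The alternatives were a fit without the replicate block, DESeq2, limma-voom, other scalings, other filters, each mouse left out in turn and no threshold on the fold change. The member calls (2 lower, 0 higher) were Dsp and Evpl under DESeq2, limma-voom, RLE and library size scaling and both filters. Other junction genes below are the genes tested on the junction, keratin, cornified envelope and transcription factor lists. They numbered 63 in the main fit, 68 without a filter and 58 with at least 10 counts in every library. With a mouse left out they numbered 61 to 63. Without the block that pairs the glands of a mouse, 0 members, 125 of all genes and 8 other junction genes were lower. In the same fit 0 members, 218 of all genes and 0 other junction genes were higher, and Adamts18 was at -0.90 (unadjusted p = 0.0767, edgeR). Dsp and Evpl were then at -0.44 and -0.59. With scaling to the pan-epithelial genes, 0 members were lower, their median was 0.16, 33 genes were lower and 2067 higher, 0 other junction genes were lower and 2 higher, 2 members differed between mice, and Adamts18 was at -0.39. Jup (0.20), Pkp1 (0.049), Pkp2 (0.18), Pkp3 (0.18), Dsg2 (0.14), Ppl (0.039), Perp (0.18) and Dsp (0.0044) turned positive. With scaling to the geometric mean of these genes (chosen after seeing the data), 0 members were lower with a median of 0.10, 28 genes were lower and 1096 higher, 0 other junction genes were lower and 2 higher, 2 members differed between mice, Adamts18 was at -0.45, and Jup (0.15), Pkp2 (0.12), Pkp3 (0.12), Dsg2 (0.084) and Perp (0.12) were positive. DESeq2 called 340 genes and 2 other junction genes higher, limma-voom 345 and 2. Without a filter 352 genes were higher and 2 members differed between mice. With at least 10 counts in every library 0 other junction genes were higher, but Sprr1a, with 6 reads in its lowest gland, was then not tested. With a mouse left out, 1 to 4 members were lower (1, Dsp, without mouse 2; 4 without mouse 1), with medians from -0.41 to -0.22, 214 to 481 genes were lower and 182 to 581 higher, 11 to 31 other junction genes were lower (17 with all mice), and Adamts18 was at -1.04 to -0.72 (unadjusted p = 0.0582 without mouse 2, edgeR). Dsc2 ran from -0.068 (without mouse 1) to 0.26 (without mouse 2) and Pkp1 from -0.84 (without mouse 1) to 0.0090 (without mouse 2). The causes were not tested. Each gland had 24070 to 40117 reads over the members, and n = 3 mice limits the precision.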
